A study of Mus musculus with 12 samples.

Results

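Pparg and 9 genes best known from fat cells were followed through liver RNA-seq of lean and fat-fed mice. The 10 genes (Pparg, Cidea, Cidec, Plin4, Fitm1, Mogat1, Fabp4, Cfd, Adipoq and Lep) were taken by symbol, as Pparg and adipocyte-type lipid storage genes, and all 10 were found among the 50559 genes listed. The set was selected on its counts in high-fat diet against chow livers of these same libraries, which were known when it was proposed, so the diet values below are a description with no test.

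The 12 libraries were made from livers of C57BL/6N mice, 3 in each of 4 groups. The NCD group ate normal chow and the HFD group a diet with 60% of its energy from fat, each for 12 weeks. The HFD+C1 and HFD+C2 groups ate the high-fat diet and were injected intraperitoneally with a compound, C1 or C2, at a daily dose of 5 mg/kg. Both are named in the title of the series as inhibitors of CYP4A, a family of cytochrome P450 enzymes acting on fatty acids. The labels mention no vehicle injection for NCD or HFD, so an effect of injection and an effect of a compound cannot be told apart.

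PPARG is a nuclear receptor that binds DNA as a partner of RXR and drives the program of fat-cell formation. In a lean liver it is low, and in fatty livers of mice it is known to be higher and to promote triglyceride storage by hepatocytes. Its known targets include proteins that coat or fuse lipid droplets, among them CIDEA, CIDEC and PLIN4, and the fatty acid carrier FABP4. Gene-level counts cannot tell the Pparg1 and Pparg2 transcripts apart.

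PPARG and RXR bind as a pair to 2 copies of AGGTCA spaced by 1 base, so RefSeq promoter windows of GRCm38.p6 (250 bases before to 50 after each annotated start) were searched on both strands. 8 of the 10 genes had a window, 11 windows in all; Cidea and Fabp4 had none. The strict repeat, AGGTCA, any base and AGGTCA again, was found in 0 of the 11 windows, against 0.0396% of all 32851 windows, and a looser one, with AGGNCA for each copy, in 0 of 11, against 0.381%. A single AGGTCA, which every strict repeat contains, was found in 2 of the 11 windows, against 16.3% of all windows. Both belong to Pparg, at 28 and 9 bases before 2 of its 3 annotated starts. No match means only that these letters are absent from these windows. The 100 bases just before each start of Pparg, the regulator, and of Cidec, Mogat1 and Fitm1, 3 genes with a window and an unadjusted p under 0.05 in a compound comparison below, are given 5′ to 3′ on the gene's strand, with AGGTCA in capitals.
Pparg, chr6:115361044-115361143, plus strand: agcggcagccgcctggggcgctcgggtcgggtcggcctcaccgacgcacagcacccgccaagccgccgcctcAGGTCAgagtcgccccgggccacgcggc
Pparg, chr6:115362249-115362348, plus strand: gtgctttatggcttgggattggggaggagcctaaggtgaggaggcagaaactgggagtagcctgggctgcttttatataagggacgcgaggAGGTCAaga
Pparg, chr6:115421966-115422065, plus strand: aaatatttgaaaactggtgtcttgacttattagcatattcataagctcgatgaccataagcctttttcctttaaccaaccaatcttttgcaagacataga
Cidec, chr6:113434765-113434864, minus strand: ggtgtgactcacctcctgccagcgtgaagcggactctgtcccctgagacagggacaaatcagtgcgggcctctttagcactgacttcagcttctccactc
Cidec, chr6:113435761-113435860, minus strand: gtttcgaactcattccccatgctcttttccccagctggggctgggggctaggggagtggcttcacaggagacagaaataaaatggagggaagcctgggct
Mogat1, chr1:78510960-78511059, plus strand: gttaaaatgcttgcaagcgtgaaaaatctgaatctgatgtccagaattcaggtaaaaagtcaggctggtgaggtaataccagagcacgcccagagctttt
Fitm1, chr14:55575574-55575673, plus strand: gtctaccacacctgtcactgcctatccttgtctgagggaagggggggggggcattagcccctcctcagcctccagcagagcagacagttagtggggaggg
The printed stretches differ in base composition: GC content was 79%, 54% and 33% before the 3 starts of Pparg, 58% and 56% for Cidec, 43% for Mogat1 and 62% for Fitm1.

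The reads counted in genes numbered 4281210 in the shallowest library, NCD replicate 2, and 32124248 in the deepest, HFD replicate 1; levels are given as CPM, counts scaled to this total. Pairs of libraries of 1 group gave correlations of log2 CPM from 0.978 to 0.994, except for the 4 that involve NCD replicate 1 or HFD+C2 replicate 1, which gave 0.912 to 0.949. These 2 libraries also had the largest shares of reads not assigned to a gene (unmapped, multimapped, ambiguous or without a feature), 58.2% and 47.1%. NCD replicate 3 held muscle transcripts, with 826 counts of Acta1 and 945 of Tnnt3, and its 6 muscle markers summed to 118.7 CPM against at most 2.64 CPM in any other library. Summed hepatocyte markers were 39094 to 85396 CPM in NCD, 90542 to 111069 in HFD, 105182 to 114103 with C1 and 70117 to 141996 with C2.

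Of the 10 genes, 8 averaged 10 counts or more across the libraries compared and could be tested; Adipoq and Lep did not. In fat-fed livers all 8 were higher than on chow, with no overlap between the 3 HFD and the 3 NCD libraries. Among all 13864 genes tested, 11.9% were higher without overlap and 2.65% were called higher; because this contrast chose the genes, nothing is read from their count. Cidea and Cfd, with 8 and 22 counts over the 3 chow libraries, passed the filter only through the fat-fed group. Their log2 changes ran from 0.94 for Pparg to 8.08 for Cidea, with a median of 3.44 against -0.02 over all genes tested. The hepatocyte marker sums were also higher in all 3 HFD than in all 3 NCD libraries, and their part in the diet values was not tested. Cidea, Cidec, Plin4, Cfd and Mogat1 were at 5.61 CPM or less in every chow library, and Pparg, Fabp4 and Fitm1 at 7.24 CPM or more.

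**Figure D1:**
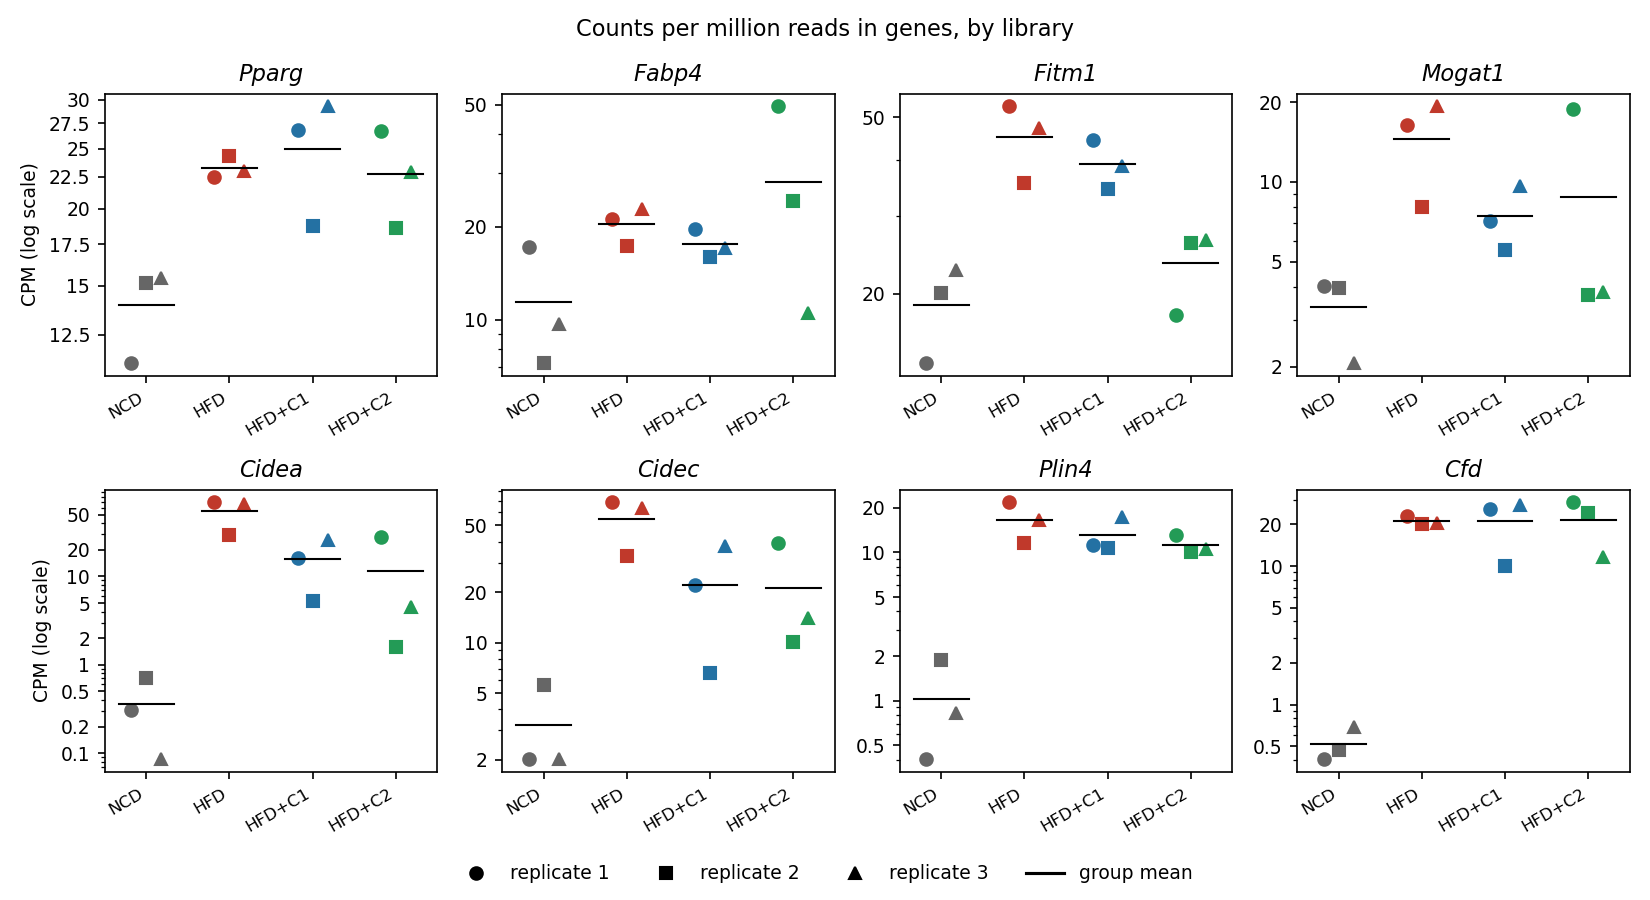
Level of each of the 8 tested genes in each library, in CPM on a log scale that differs between panels, with 3 libraries per group and a line at the group mean. All 3 HFD libraries lie above all 3 NCD libraries in every panel, and Cidea in both compound groups lies below HFD.

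Pparg, the receptor gene itself, stood at 11.3, 15.2 and 15.4 CPM in NCD replicates 1 to 3 and at 22.5, 24.3 and 23.0 CPM in HFD. The HFD livers were closely grouped, at 23.2 ± 0.939 CPM (SD, n = 3) against 14.0 ± 2.34 on chow. Log2 changes here and below come from edgeR fits with TMM scaling unless another is named, whereas CPM is scaled by library size alone. In that fit Pparg was 0.94 higher in HFD on the log2 scale (standard error, SE, 0.21), and 0.74 higher with scaling by library size alone. With C1 it was 26.8, 18.8 and 29.3 CPM, and with C2 26.7, 18.6 and 22.9 CPM. Both compound groups therefore spread around the HFD level, and every fat-fed library lay above every chow library.

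Cidea encodes a lipid droplet protein that promotes droplet growth and is typical of brown fat. It was nearly absent on chow, with 3, 3 and 2 counts in the 3 NCD libraries, at or under the floor of 3 counts taken for detection. In HFD it reached 69.0, 29.3 and 66.5 CPM, from 2216, 823 and 1675 counts. The pooled ratio of HFD to NCD was 257, with a 95% counting interval of 130 to 596 that covers counting error only; the fitted log2 change of 8.08 (SE 0.62) rests on those 8 chow counts, and was 7.25 without NCD replicate 3 and 8.64 without NCD replicate 2. With C1 it was 16.3, 5.26 and 25.7 CPM and with C2 28.2, 1.61 and 4.52 CPM. Every treated library lay below the lowest HFD library and above the highest NCD library, and the C2 libraries were far apart.

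Cidec, a second droplet protein of the same family that enlarges droplets by moving lipid between them, was 2.03, 5.61 and 2.03 CPM on chow. In HFD it was 68.6, 32.7 and 63.3 CPM, a log2 change of 4.51 (SE 0.48). With C1 it was 22.0, 6.63 and 37.5 CPM and with C2 39.3, 10.1 and 14.1 CPM. In each compound group 1 library lay above the lowest HFD library, so these groups overlapped.

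Plin4, a perilipin that coats lipid droplets, was 0.406, 1.87 and 0.821 CPM on chow. In HFD it was 21.8, 11.6 and 16.6 CPM, a log2 change of 4.46 (SE 0.47). It was 11.2, 10.7 and 17.2 CPM with C1 and 13.1, 10.1 and 10.5 CPM with C2, within the HFD range or just outside it.

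Fitm1, an endoplasmic reticulum protein that partitions triglyceride into droplets and is best known from muscle, was 14.0, 20.1 and 22.7 CPM on chow. In HFD it was 52.9, 35.5 and 47.1 CPM, a log2 change of 1.46 (SE 0.27). It was 44.3, 34.4 and 38.8 CPM with C1 and 17.9, 26.0 and 26.5 CPM with C2, so all 3 C2 libraries were below all C1 and HFD libraries. The highest chow value was in the library with muscle transcripts; without it the log2 change on the diet was 1.68.

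Mogat1 encodes an enzyme that makes diacylglycerol from monoacylglycerol. It was 4.06, 3.97 and 2.07 CPM on chow and 16.3, 8.04 and 19.3 CPM in HFD, a log2 change of 2.42 (SE 0.40). It was 7.13, 5.52 and 9.65 CPM with C1 and 18.8, 3.73 and 3.84 CPM with C2. The first C2 library was at the HFD level and the other two were at the chow level.

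Fabp4, the fatty acid binding protein of fat cells, is also made by macrophages and endothelium. It was 17.2, 7.24 and 9.68 CPM on chow and 21.3, 17.3 and 22.8 CPM in HFD, a log2 change of 1.06 (SE 0.28). The HFD and NCD libraries were separated by a narrow margin, 17.29 against 17.24 CPM. With C1 it was 19.7, 15.9 and 17.1 CPM and with C2 49.3, 24.4 and 10.5 CPM. The C2 group held both the highest and the lowest fat-fed value. NCD replicate 1 and HFD+C2 replicate 1, the highest chow and the highest fat-fed library for Fabp4, also had the highest macrophage marker sums among the 12 libraries, 304 and 354 CPM, and the part of this in the Fabp4 values was not tested.

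Cfd encodes complement factor D, a serine protease of the alternative complement pathway secreted by fat cells. It was 0.406, 0.467 and 0.691 CPM on chow, from 4, 2 and 16 counts. In HFD it was 22.9, 20.1 and 20.5 CPM, a log2 change of 5.40 (SE 0.29). It was 25.8, 10.1 and 27.6 CPM with C1 and 28.9, 24.0 and 11.7 CPM with C2, so 1 library in each compound group was below the HFD range.

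The hormones of fat cells were not part of this pattern. Adipoq, which encodes adiponectin, had 0, 0 and 0 counts on chow, 0, 0 and 1 in HFD, 3, 2 and 1 with C1 and 0, 0 and 1 with C2. Lep, which encodes leptin, had 0, 2 and 0 counts on chow, 0, 0 and 0 in HFD, 6, 0 and 2 with C1 and 0, 1 and 2 with C2. A count of 0 in HFD replicate 1 allows a level of up to 0.0934 CPM.

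The 12 fat-cell markers of a separate list were not uniform. Retn, Tshr, Dio2 and Slc7a10 had 3 counts or fewer in each library. Ucp1 had 16 counts in NCD replicate 1, 1 in HFD+C1 replicate 1 and 0 in the other 10, and Acvr1c had 42 counts in NCD replicate 1, 9 in NCD replicate 3 and at most 2 elsewhere. NCD replicate 1 therefore stood out for both, and it also had the highest sum of the list and the highest chow Fabp4; the part of this in the Fabp4 values was not tested. Nnat ranged from 0 to 24 counts, with the highest in NCD replicate 3, Adrb3 from 3 to 33 and Trarg1 from 1 to 13. Sncg had 1, 0 and 5 counts on chow, 16, 4 and 6 in HFD, 18, 9 and 9 with C1 and 8, 17 and 10 with C2. Plin1, the perilipin that defines fat cells, had 9, 0 and 9 counts on chow, 1, 0 and 0 in HFD, 7, 0 and 1 with C1 and 0, 0 and 1 with C2. Its 7 counts were in HFD+C1 replicate 1, the library with the highest counts of Adipoq and Lep. The whole list summed to 8.88 to 14.0 CPM on chow, 7.04 to 11.3 in HFD, 8.66 to 9.06 with C1 and 5.01 to 8.27 with C2, and Lipe, a lipase that liver also expresses, gave the largest share in every library. The 10 followed genes summed to 49.7 to 55.6, 179 to 295, 107 to 203 and 105 to 222 CPM in the same order. In bulk tissue, fewer cells of a type and less RNA per cell cannot be told apart.

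Within HFD livers the genes can be ordered per kilobase of exon (from GENCODE M21 gene models). The length was the union of all annotated exons of a gene, for example 4489 bases for Fabp4 and 1115 for Cidea. It can exceed the length of the transcripts made in liver, which would lower the value, so the order depends on it. Cidea was the highest at 49.2 ± 19.9 CPM per kb (SD, n = 3), followed by Fitm1 at 46.5 ± 9.11, Cidec at 29.6 ± 10.5 and Cfd at 23.0 ± 1.68. Mogat1 at 9.34 ± 3.74, Pparg at 7.87 ± 0.318, Fabp4 at 4.56 ± 0.636 and Plin4 at 2.88 ± 0.877 came next. The libraries of Cidea and Fitm1, of Fitm1 and Cidec, of Cidec and Cfd and of Mogat1 and Pparg overlapped, so those neighbours did not differ beyond their spread.

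C1 was compared with HFD to ask whether the compound moved these genes in fat-fed livers. Cidea averaged 15.8 ± 10.2 CPM with C1 (SD, n = 3) against 54.9 ± 22.2 in HFD, Cidec 22.1 ± 15.4 against 54.8 ± 19.4, and Mogat1 7.44 ± 2.08 against 14.6 ± 5.83. None of the 8 genes passed the test of edgeR over 13358 genes, among which 0.0524% were called; 3 of the 8 had an unadjusted p under 0.05 (7.75% of all genes did), and DESeq2 called 0. For Cidea the log2 change was -1.86 (SE 0.42; unadjusted p = 0.000713; adjusted p = 0.206), and it alone of the 8 had no overlap with HFD, as did 5.54% of all genes in that direction. The HFD libraries here are those of the contrast that chose the genes, so a high HFD value enters both comparisons.

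Mogat1 differed by -1.01 on the log2 scale (SE 0.28; edgeR adjusted p = 0.336) and Cidec by -1.37 (SE 0.43; edgeR adjusted p = 0.412). The other 5 lay closer to 0: Plin4 at -0.40, Fabp4 and Fitm1 at -0.24, Cfd at -0.04 and Pparg at 0.08, with a 95% interval for Pparg of -0.24 to 0.39. The median of the 8 log2 changes was -0.32, against 0.01 over all genes tested. Without HFD replicate 2, the HFD library with the lowest Cidea, Cidec and Mogat1, edgeR called 2 of the 8: Cidea at -2.17 (adjusted p = 0.0144) and Mogat1 at -1.32 (adjusted p = 0.00509). Leaving out this library raises the HFD mean of these genes. Over all genes, the fits with a library left out called from 2 to 102, against 7 with all libraries. None of the 8 was called with any other library left out, and some differences shrank. Without HFD+C1 replicate 2 Cidea was at -1.44 and Cidec at -0.94, and without HFD replicate 1 Plin4 was at -0.12 and Fitm1 at -0.08. Without HFD+C1 replicate 3, Cidec was at -1.96. The macrophage markers, 9 in all, summed to 222 to 281 CPM with C1 and 176 to 354 with C2, against 128 to 181 in HFD, and their part in these differences was not tested.

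C2 was compared with HFD in the same way. Fitm1 averaged 23.5 ± 4.83 CPM with C2 (SD, n = 3) against 45.2 ± 8.85 in HFD, and Cidea 11.5 ± 14.6 against 54.9 ± 22.2. None of the 8 genes was called by edgeR over 13503 genes, of which 0.0222% were called; 3 of the 8 had an unadjusted p under 0.05 (6.89% of all genes did). DESeq2 called 1 of the 8, Fitm1, at an adjusted p of 0.0404, and 35 of 13503 genes in all. In edgeR Fitm1 differed by -0.92 on the log2 scale (SE 0.21; unadjusted p = 0.00146; adjusted p = 0.695). Fitm1 and Cidea did not overlap with HFD, against 8.39% of all genes in that direction.

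Cidea differed by -2.17 on the log2 scale (SE 0.85; edgeR adjusted p = 0.695) and Cidec by -1.30 (SE 0.51; edgeR adjusted p = 0.695). Without HFD+C2 replicate 1, the library of this group that stands apart, edgeR called 3 of the 8 genes lower: Cidea at -4.22 (adjusted p = 0.00171), Cidec at -2.21 (adjusted p = 0.00860) and Mogat1 at -1.96 (adjusted p = 0.0293). Over all genes, the fits with a library left out called from 0 to 27, against 3 with all 6 libraries. With all 6 libraries Mogat1 was at -0.64 (SE 0.62), Plin4 at -0.52, Fabp4 at 0.55, Cfd at 0.10 and Pparg at 0.02, with a 95% interval for Pparg of -0.39 to 0.43. Without HFD+C2 replicate 1 Fabp4 was at -0.22, Cfd at -0.23 and Pparg at -0.18. None of the 8 genes was called when another C2 library was left out. Cidea, Cidec and Mogat1 then lay closer to 0, at -1.64, -0.96 and -0.27 without replicate 2 and at -1.74, -1.02 and -0.25 without replicate 3. Fabp4 lay farther from 0, at 0.66 and 0.97, as did Fitm1, at -1.01 and -0.95, and Cfd was at 0.43 without replicate 3. The median of the 8 log2 changes with all libraries was -0.58, against 0.02 over all genes tested.

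**Figure D2:**
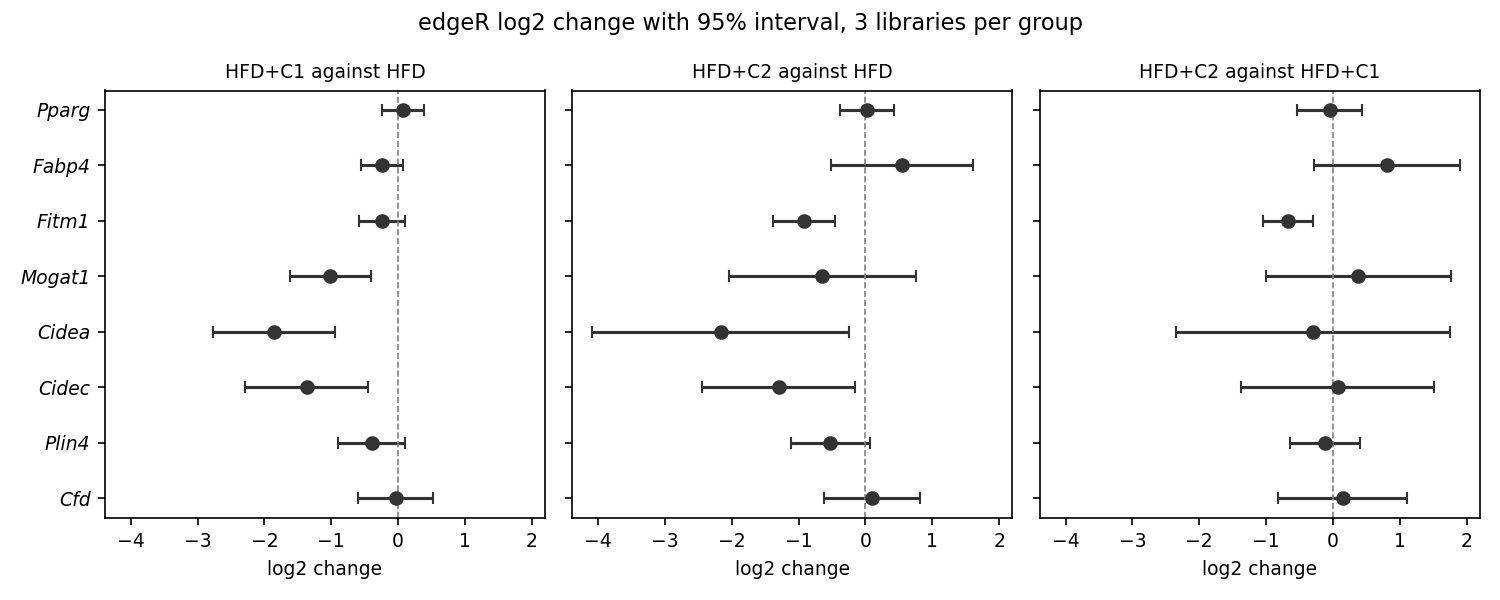
Log2 change of each gene with its 95% interval (edgeR, 3 libraries per group) for C1 and C2 against HFD and for C2 against C1; the dashed line is no change. The intervals of Cidea and Cidec lie below 0 against HFD for both compounds, and those of Pparg and Cfd span 0.

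**Figure D3:**
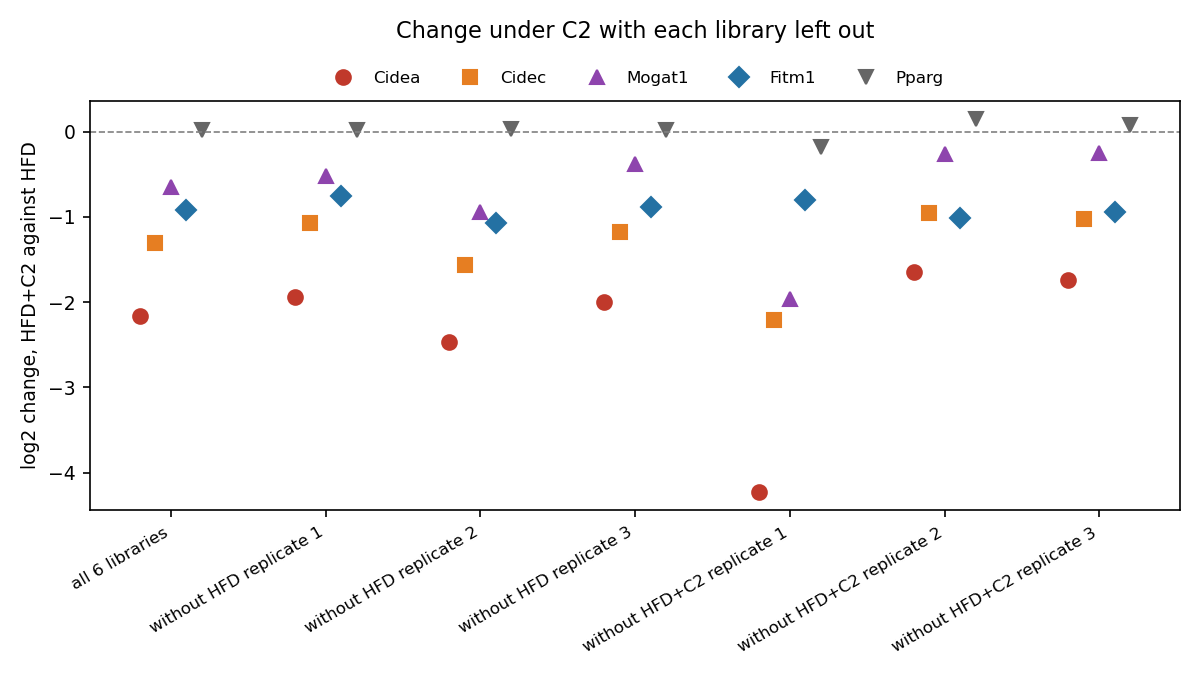
Log2 change of 5 genes for HFD+C2 against HFD with all 6 libraries and with each library left out in turn. Leaving out HFD+C2 replicate 1 takes Cidea from -2.17 to -4.22 and Mogat1 from -0.64 to -1.96, and Fitm1 stays between -1.07 and -0.76.

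C1 and C2 were given at the same dose and by the same route, so they were compared directly, as 1 pair of compounds. None of the 8 genes differed between them by edgeR over 13229 genes, of which 0% were called; 1 had an unadjusted p under 0.05 (4.6% of all genes did), and DESeq2 called 0. That gene was Fitm1, lower with C2 by -0.67 on the log2 scale (SE 0.17; 95% interval -1.05 to -0.29; unadjusted p = 0.00301; adjusted p = 0.841), without overlap, as were 7.51% of all genes in that direction. This comparison uses no HFD or NCD library.

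The intervals for the other genes were wide and do not show that the compounds act alike. For Cidea the difference, C2 minus C1, was -0.30 with a 95% interval of -2.35 to 1.75, and for Cidec 0.08 with an interval of -1.37 to 1.52. It was 0.38 (-1.01 to 1.77) for Mogat1 and 0.80 (-0.29 to 1.90) for Fabp4. Narrower intervals were found for Pparg, -0.05 (-0.53 to 0.44), and Plin4, -0.12 (-0.64 to 0.40), while Cfd was at 0.15 (-0.82 to 1.11). Without HFD+C2 replicate 1, Cidea was at -2.37, Mogat1 at -0.95, Cidec at -0.84 and Fabp4 at 0.03, none of them called.

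Treated livers were also set against chow. The genes were chosen on these NCD libraries, and Cidea and Cfd passed the filter only through the treated group, so the values are a description and nothing is read from the counts of calls. With C1 the log2 changes were 6.19 for Cidea (SE 0.82), 5.35 for Cfd (SE 0.50), 4.05 for Plin4 (SE 0.45), 3.12 for Cidec (SE 0.67), 1.39 for Mogat1, 1.21 for Fitm1 (SE 0.24), 1.01 for Pparg and 0.80 for Fabp4. Groups did not overlap for 7 of the 8, beside 11.7% of all genes. The number called was 5 by edgeR, beside 1.47% of all genes, 7 by DESeq2 and 6 in 1 edgeR fit of all 12 libraries. Over all genes, calls in either direction numbered 460 as reported and 309 to 3697 under other scalings, filters and fits. With a library left out they numbered 11 to 1583. Of the 8, Cfd alone was called when NCD replicate 3, HFD+C1 replicate 1 or HFD+C1 replicate 3 was left out, 4 genes when NCD replicate 2 or HFD+C1 replicate 2 was, and all 8 when NCD replicate 1 was. Cidea was at 5.37 without NCD replicate 3, and Cidea at 5.60 and Cidec at 2.47 without HFD+C1 replicate 3.

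With C2 the log2 changes against chow were 5.88 for Cidea, 5.52 for Cfd (SE 0.52), 3.92 for Plin4 (SE 0.48), 3.19 for Cidec, 1.79 for Mogat1, 1.64 for Fabp4, 0.98 for Pparg and 0.56 for Fitm1, again a description. Groups did not overlap for 5 of the 8, beside 7.09% of all genes. The number called was 2 by edgeR (Cfd and Plin4), beside 0.533% of all genes, and 6 both by DESeq2 and in 1 edgeR fit of all 12 libraries. Over all genes, calls in either direction numbered 219 as reported and 140 to 3194 under other scalings, filters and fits. With libraries left out they numbered 2 to 1273. None of the 8 was called when NCD replicate 3 or HFD+C2 replicate 2 was left out, and Cfd alone when HFD+C2 replicate 1 or 3 was. Without HFD+C2 replicate 1, Cidea was at 3.60, Cidec at 2.24, Mogat1 at 0.43 and Fabp4 at 0.86. Cidea was at 5.08 without NCD replicate 3.

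To ask whether the genes moved together from animal to animal, log2(CPM + 0.5) was correlated over the 9 fat-fed libraries, which share diet but differ in compound and depth. Between Pparg and each of the other 7 genes, r ran from 0.06 for Fitm1 to 0.59 for Cidec (n = 9; 7 pairs; adjusted exact permutation p from 0.266 to 0.885). For Cidec, Spearman's rho was 0.38, and r was 0.48 without the 2 libraries farthest from the median of Pparg. Without HFD+C2 replicate 2, 1 pair passed, Pparg with Cfd at r = 0.83 (adjusted exact permutation p = 0.0262). Within groups, on deviations from the group means, r was 0.85 for Cidec and 0.82 for Cidea, and 0 of 7 pairs passed.

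Over the 9 libraries, higher values were found among the droplet genes and Mogat1, in a table of all 28 pairs made after the data were seen. On deviations from the group means this order was not kept throughout. There Cidea and Cidec had r of 0.82 and 0.85 with Pparg, 0.69 and 0.78 with Plin4, and 0.92 and 0.82 with Mogat1. The difference from the values with Pparg was not tested. The 9 libraries include the 3 HFD libraries whose high values chose these genes, so a high level shared by those enters every pair. Of the 28 pairs, 5 passed an exact permutation test after adjustment over all 9 libraries, and 0 passed within groups. Cidea followed Cidec at r = 0.93 (rho 0.90; n = 9; adjusted exact permutation p = 0.0107) and Mogat1 at r = 0.91 (rho 0.88; n = 9; adjusted exact permutation p = 0.0166). Cidec followed Mogat1 at r = 0.87 and Plin4 at r = 0.84, and Cidea followed Plin4 at r = 0.81. Without the 2 libraries farthest from the median, Cidea and Cidec were at 0.98. Without HFD+C2 replicate 1, 8 pairs passed. On deviations from the group means Cidea and Cidec were at r = 0.94, with an exact permutation p of 0.00463, the smallest that 216 reorderings within groups can give, and an adjusted exact permutation p of 0.0648. A pair at this smallest p cannot pass alone after adjustment over 28 pairs. The 0 pairs passing within groups therefore do not show that covariation is absent there.

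**Figure D4:**
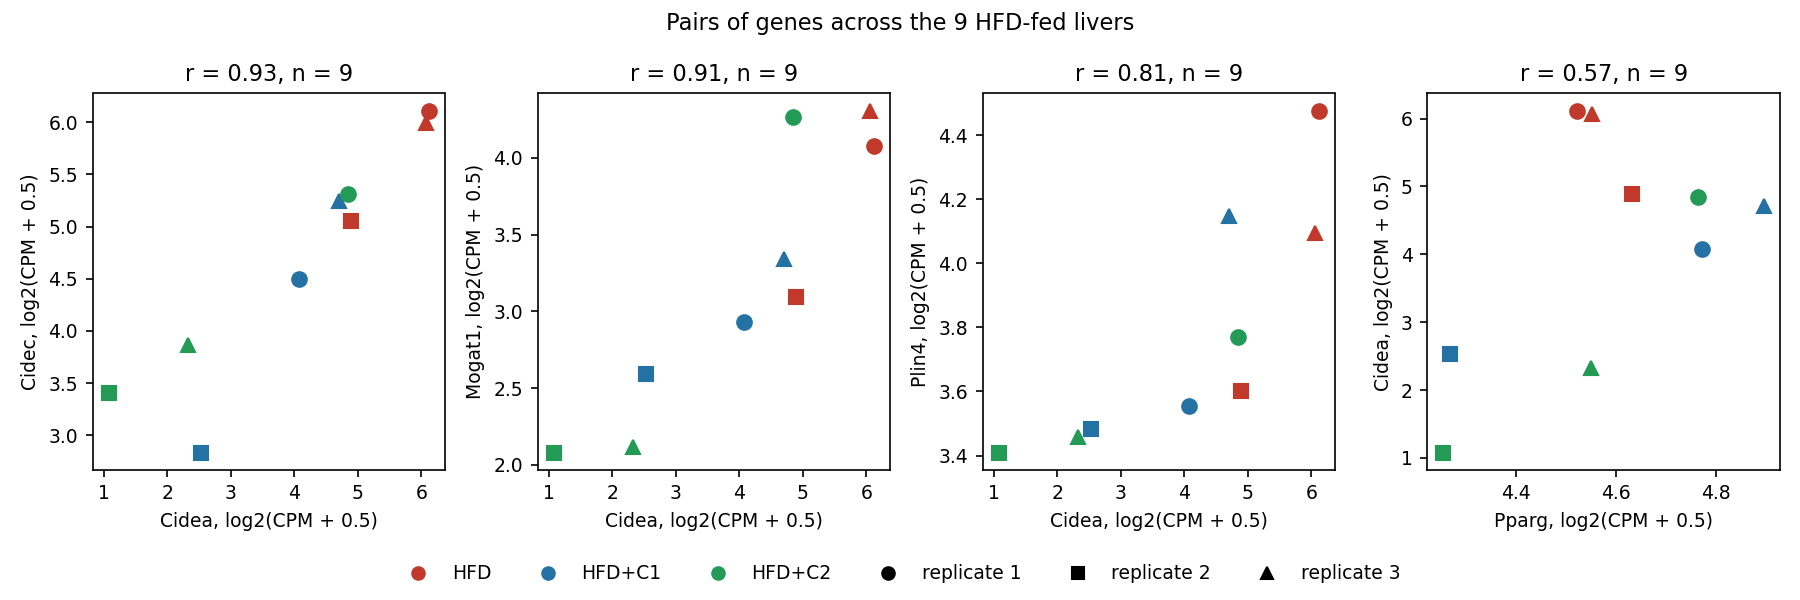
Log2(CPM + 0.5) of gene pairs across the 9 fat-fed libraries, with the group by colour and the replicate by shape. Over these libraries Cidea is high where Cidec (r = 0.93), Mogat1 (r = 0.91) and Plin4 (r = 0.81) are, and is more scattered against Pparg (r = 0.57). On deviations from the group means, which are not drawn, the same pairs had r of 0.94, 0.92, 0.69 and 0.82.

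Among 10330 genes averaging 50 counts or more, the 5 closest to Pparg over the same 9 libraries were Odf2l (r = 0.93), Pygl (0.92), Stk38l (0.90), Dmtf1 (0.89) and Dera (0.89). The best placed of the followed genes, Cidec, came at rank 444. These are descriptions over libraries that also differ in depth, and Pparg itself had r = -0.36 with the number of reads in genes.

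The ratio of the 2 droplet genes was taken in each library, after the data were seen. Per kilobase, the ratio of Cidea to Cidec was 1.67, 1.49 and 1.75 in HFD, 1.23, 1.32 and 1.14 with C1, and 1.20, 0.264 and 0.533 with C2. On chow it was 0.250, 0.208 and 0.0708, from 3 or fewer counts of Cidea. Every treated library lay below every HFD library, but 3 against 3 cannot give an exact permutation p below 0.1 (two-sided), so this test could not pass, and these HFD libraries are those that chose the genes. The compounds overlapped, with the first C2 library inside the C1 range (exact permutation p = 0.2).

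**Figure D5:**
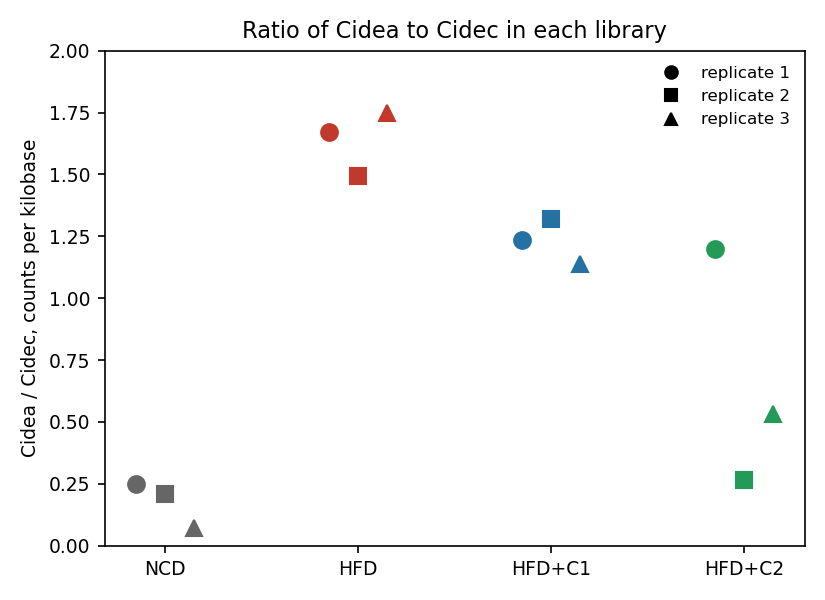
Ratio of Cidea to Cidec counts per kilobase in each library, by group, with replicates by shape. The HFD libraries lie between 1.49 and 1.75, those with C1 between 1.14 and 1.32, and those with C2 between 0.264 and 1.20.

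Genes around PPARG were taken from lists. These lists were also chosen with earlier results of these data known, so their calls and p values, here and below, are a description. Of 24 genes for partners and regulators of PPARG, 22 were tested on the diet, and 1 rose and 1 fell, near the shares of all genes called (2.65% higher and 3.48% lower): Ppara, the receptor for fatty acid oxidation, by 1.14 on the log2 scale (SE 0.25; adjusted p = 0.0418 by edgeR), and Mlxipl, a glucose-responsive lipogenic factor, by -0.75 (SE 0.18; adjusted p = 0.0467). Of 32 lipid storage genes 29 were tested, and 2 rose: Cd36, a fatty acid transporter, by 2.06 (SE 0.21; adjusted p = 0.00422) and Mgll, monoglyceride lipase, by 1.02 (SE 0.21; adjusted p = 0.0379). Their medians were 0.06 and 0.43, against -0.02 over all genes tested. Of 9 partners of the secreted proteins, 0 were called by edgeR. An unadjusted p under 0.05 was found for 7 of the 22 PPARG partners, 15 of the 29 lipid storage genes and 1 of these 9, against 28.8% of all genes.

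Under the compounds, 0 genes of these 3 lists were called against HFD by edgeR; an unadjusted p under 0.05 was found with C1 for 3 of 21 PPARG partners, 3 of 28 lipid storage genes and 2 of 9 partners of secreted proteins (7.75% of all genes), and with C2 for 1 of 21, 6 of 28 and 3 of 9 (6.89% of all genes). DESeq2 called 0 of the PPARG partners and 0 of the lipid storage genes with C1, and 1 of each with C2, where it called 35 of 13503 genes. Cebpb, a transcription factor of fat-cell formation, was at -0.54 with C1 (edgeR adjusted p = 0.439) and -1.07 with C2 (edgeR adjusted p = 0.625). Fasn, the fatty acid synthase, was at -1.16 with C2 (edgeR adjusted p = 0.606). Against chow, 9 of 22 PPARG partners had an unadjusted p under 0.05 with C1 (28% of all genes did) and 2 fell (1.93% of all genes), Mlxipl by -1.02 (adjusted p = 0.0340 by edgeR) and Ppard, a related receptor, by -1.51 (adjusted p = 0.0482), and 0 were called with C2, where 7 of 22 had an unadjusted p under 0.05 (22.4% of all genes) and DESeq2 called 5, with 1425 of 13691 genes called in all. Of 28 lipid storage genes tested against chow, 1 was called with each compound, beside 1.47% of all genes called higher with C1 and 0.533% with C2. That gene was Cd36, which rose with C1 by 1.83 (adjusted p = 0.00736 by edgeR) and with C2 by 2.09 (adjusted p = 0.0206).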

How the data were processed

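RNA of 12 mouse livers was sequenced. The authors deposited 3 tables of read counts per gene, and the submitters' processing notes name Trimmomatic 0.39, STAR 2.7, DESeq2 and mm10, with no role given. The annotation and strand use are not given in the sources used here. The tables are called normalized, but the deposited values are whole counts with unequal totals, and the HFD columns shared by the tables differ in 0 cells. The 4 rows naming no gene (unmapped, multimapped, ambiguous and no feature; 27.3% to 58.2% of a library's reads) were left out, and 0 value columns were unmapped.

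Each comparison was fitted to its own 6 libraries with edgeR 4.0.16 (R 4.3.3; quasi-likelihood test, TMM scaling, mean of at least 10 counts, Benjamini-Hochberg adjustment over all genes tested, call at an adjusted p under 0.05). DESeq2 1.42.0, other scalings and filters, 1 fit of all 12 libraries, the replicate number as a block and leaving out each library were alternatives. Correlations used exact permutations. The fit was checked on simulated counts. Changes of 1 on the log2 scale were recovered in 76% of cases for C1 against HFD, 30% for C2 against HFD and 49% for C2 against C1. Against NCD these shares were 11% for HFD, 15% for C1 and 3% for C2. Unchanged genes made up 16 of 188 calls for C1 against HFD, 7 of 125 for C2 against HFD and 16 of 154 for C2 against C1. Replicates are called biological in the labels.

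The genes and lists were chosen with earlier results of these data known. Named genes were the 10 members, list genes that were called or had the highest or lowest log2 change, and the 5 genes most like Pparg. The fat-cell markers were named after their values were seen. The table of 28 pairs, the Cidea to Cidec ratio, the joint omission of 2 libraries, the omission of single libraries from correlations and the choice of printed promoters came after values were seen. For correlations of deviations from group means, permutation over all 9 libraries was run first; it passed 2 of 7 and 5 of 28 pairs, is not valid for centred values, and was replaced by reordering within groups.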

Additional observations from a re-analysis of the deposited data

How the results depend on the processing

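The median diet log2 change of the 8 genes stayed between 3.18 and 3.70 over all alternatives. Scaling by library size alone moved the median of all genes by over 0.1: it was -0.23 for HFD, -0.20 for HFD+C1 and -0.26 for HFD+C2 against NCD. Without a filter on low counts, 3 of the 8 genes were called for C1 against HFD, 3 for C2 against HFD, 1 for C2 against C1, 8 for C1 against NCD and 7 for C2 against NCD. The cause was not tested. Calls over all genes moved too under the other scalings, filters and fits. They ranged from 0 to 206 (C1) and 0 to 152 (C2) against HFD and from 0 to 162 for C2 against C1. Against NCD they ranged from 309 to 3697 (C1) and 140 to 3194 (C2). DESeq2 called 1 for C2 against HFD and 6 for C2 against NCD, where 1 fit of all 12 libraries gave 6, library size scaling 4, and the omission of both libraries that stand apart 4. Over all genes, replicate numbers did not clearly pair the samples. Deviations from group means correlated from -0.15 to 0.27 in 18 same-number pairs (median 0.03, 6 over 0.1). In 36 different-number pairs they correlated from -0.26 to 0.29 (median -0.036, 9 over 0.1). Cidea, Cidec, Plin4 and Mogat1 were nevertheless lowest in replicate 2 in each fat-fed group. With the replicate block, 3 of the 8 genes (Cidea, Cidec and Mogat1) were called for C1 against HFD, 8 for C1 and 4 for C2 against NCD. With 1 library left out, calls among the 8 genes ranged from 0 to 2 (C1) and 0 to 3 (C2) against HFD, 1 to 8 (C1) and 0 to 2 (C2) against NCD, and 0 to 1 for pairs with Pparg. With libraries left out, calls over all genes ranged from 2 to 102 (C1) and 0 to 27 (C2) against HFD. Against NCD they ranged from 11 to 1583 (C1) and 2 to 1273 (C2).

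Signs that turned belonged to values near 0 or to C2. For C2 against HFD, Pparg was at -0.033 by library size and -0.0025 and Cfd at -0.015 with the replicate block; left-out libraries gave -0.18 to 0.14 for Pparg, -0.23 to 0.43 for Cfd and -0.22 to 0.97 for Fabp4. For C1 against HFD they gave -0.039 to 0.23 for Pparg and -0.26 to 0.29 for Cfd. For C2 against C1, Cidec was at -0.059 by library size and Mogat1 at -0.060 with the replicate block; left-out libraries gave -0.25 to 0.080 for Pparg, -2.37 to 0.23 for Cidea, -0.84 to 0.68 for Cidec, -0.19 to 0.48 for Cfd, -0.32 to 0.12 for Plin4 and -0.95 to 0.77 for Mogat1. The r of Pparg with Fitm1 was -0.080 with TMM scaling, -0.18 on group deviations and -0.14 to 0.42 with left-out libraries, and with Fabp4 -0.15 to 0.32.

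Counts of calls over all genes moved widely with the setting, from 23 to 4493 on the diet. A leave-one-out fit leaves 2 libraries in a group. The depth of NCD replicate 2 puts 3 counts at 0.701 CPM, so chow levels of Cidea and Cfd below that are not resolved there.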
